A study of Mus musculus with 9 samples.

Results

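Chromatin binding of RelA and RelB was examined around 6 mouse genes that encode feedback regulators of TNF signaling. They were Tnfaip3, Tnip1, Tnip2, Cyld, Otud7b and Zc3h12a, 6 of the 37273 genes annotated on the mm9 chromosomes. A peak was assigned to a gene if its center lay within 50 kb of the gene's start site, taken as the 5′ end of the annotated gene. The cells were mouse embryonic fibroblasts (MEFs) of the genotype Nfkb2-/-, which lack the gene for p100, and every library came from these cells. They were either untreated (0 h) or exposed to TNF at 10 ng/ml for 6 h. ChIP-seq, that is, immunoprecipitation of crosslinked chromatin followed by sequencing, was performed with an antibody to RelA (p65) or to RelB. Each antibody had 2 replicate libraries at each time, 8 libraries in all, and a ninth sample, the pooled input of the replicates, served as the control. Whether replicates came from separate cultures is not stated in the labels, so the spread given here may be technical. The peak lists hold no measure of Nfkb2 itself and therefore did not check the genotype.

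NF-κB activated by TNF induces its own inhibitors, and several of them act on ubiquitin. A20, the product of Tnfaip3, edits and removes ubiquitin chains on signaling proteins at the TNF receptor, and the products of Tnip1 and Tnip2 (ABIN1 and ABIN2) bind ubiquitin chains and A20. Cyld and Otud7b (Cezanne) are deubiquitinases, the latter known for stabilizing TRAF3 and so restraining the non-canonical NF-κB pathway, and Zc3h12a encodes Regnase-1, an RNase that degrades inflammatory mRNAs.

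The 4 libraries at 6 h listed between 5192 and 7052 peaks, while those at 0 h listed between 14 and 194. Overlapping peaks of the 6 h libraries were merged into 14781 sites, of which 1860 (12.6%) had a peak in all 4 libraries and 67.9% in only 1. The lists hold only what passed the peak caller, with no fewer than 10 ChIP reads in any peak. A gene with no listed peak was therefore not shown to be unbound, and the total reads per library are unknown.

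Near the 6 genes, 62 peaks were listed at 6 h and they merged into 22 sites. Of these, 11 had a peak in all 4 libraries, 3 in 3 libraries, 1 in 2 libraries and 7 in 1 library. Tnip1 had 8 sites, Tnfaip3 had 5, Zc3h12a had 4, Cyld had 3, and Otud7b and Tnip2 had 1 each. The sites called in all 4 libraries were 4 at Tnfaip3, 3 at Tnip1, 2 at Zc3h12a, 1 at Cyld and 1 at Otud7b, and Tnip2 had none.

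For each gene with sites called in all 4 libraries, the DNA under the strongest of those sites is shown first. Most of the results below concern these sites. Each sequence is mm9, read 5′ to 3′ on the strand of the gene, and covers 100 bp to either side of the site's midpoint less any annotated UTR. Capitals mark matches to the κB consensus on either strand, and overlapping matches run together. At Tnip1 the strongest of those sites lay wholly in UTR, so only 30 bases around its match are given. The window of the site at the gene's start is given as well.

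Tnfaip3, start site, chr10:18735217-18735311, minus strand: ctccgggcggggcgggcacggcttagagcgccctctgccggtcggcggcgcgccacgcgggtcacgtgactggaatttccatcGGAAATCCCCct
Zc3h12a, intron, chr4:124799771-124799971, minus strand: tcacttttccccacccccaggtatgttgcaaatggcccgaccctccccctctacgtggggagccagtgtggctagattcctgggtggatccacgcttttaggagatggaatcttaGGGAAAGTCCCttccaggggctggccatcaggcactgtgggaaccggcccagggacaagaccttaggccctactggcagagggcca
Tnip1, internal transcript start, chr11:54769603-54769632, minus strand: cggtctccgGGGACTTTCCCaggggcgtgg
Tnip1, gene start, chr11:54776420-54776589, minus strand: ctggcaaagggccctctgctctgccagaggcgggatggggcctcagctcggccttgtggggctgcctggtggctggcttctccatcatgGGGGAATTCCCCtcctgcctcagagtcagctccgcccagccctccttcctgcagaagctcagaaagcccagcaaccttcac
Cyld, gene start, chr8:91220812-91220926, plus strand: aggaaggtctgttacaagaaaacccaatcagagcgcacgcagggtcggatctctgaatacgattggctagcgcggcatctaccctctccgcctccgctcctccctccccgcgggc
Otud7b, upstream, chr3:95873643-95873843, plus strand: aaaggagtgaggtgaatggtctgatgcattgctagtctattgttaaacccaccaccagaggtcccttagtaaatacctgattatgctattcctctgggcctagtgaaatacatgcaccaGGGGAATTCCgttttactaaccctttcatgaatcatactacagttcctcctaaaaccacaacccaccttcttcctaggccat

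A κB match within 100 bp of the midpoint was present in 10 of the 11 member sites called in all 4 libraries, against 73.9% of the 1860 such sites genome-wide. Among the member sites of 1 library it was present in 2 of 7, against 33.7% of all single-library sites. The share over the promoters of protein-coding genes, read in a window of the same length at 22339 start sites, was 21.1%. The exception among the 11 was Cyld, whose printed window held no match. Its listed peaks extended farther, and the match GGAAAGTCCC, on the gene's strand, lay 151 bp upstream of the gene's start, inside the merged site. Searched over the whole merged site, 11 of the 11 had a match, against 86.0% of the 1860 sites.

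One decamer recurred among these sites. GGGGAATTCC, read on either strand, was present within 100 bp of the midpoint at 5 of the 11 member sites, namely those of Tnfaip3 at 30671 bp upstream and 6240 bp downstream of its start, Tnip1 at 70 bp upstream, Otud7b at 34707 bp upstream and Zc3h12a at 2864 bp downstream. The same decamer was present in 6.29% of all sites called in 4 libraries and in 1.15% of those called in 1. It was chosen after the member sequences had been seen, so these shares are a description without a test. Over the 11 sites, 34 of the 44 listed peaks had a κB match inside the called interval itself. No genome-wide share was taken for this count. It was 1 of 4 at Tnfaip3, 30671 bp upstream, where only the peak of the first RelA library held the decamer. At the start of Tnfaip3 it was 2 of 4. At the start of Tnip1 it was also 2 of 4, with the decamer outside both RelA peaks. An AP-1 element, TGANTCA, was present within 100 bp of the midpoint at 1 of the 11 sites, that of Otud7b. Of all sites called in 4 libraries, 16.5% had one. Farther from the midpoint but inside the merged site, TGAGTCA was also present at Tnfaip3, 30671 bp upstream, and Zc3h12a, 5213 bp downstream. The Otud7b site, whose nearer match was TGAATCA, had TGACTCA in that wider span too. No genome-wide share was taken for that wider span.

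No library at 0 h listed a peak within 50 kb of any of the 6 genes, whereas at 6 h all 4 libraries did. At 6 h the RelA libraries listed 19 and 16 peaks near the 6 genes, and those of RelB listed 13 and 14. Every 6 h library lay above every 0 h library, and the difference in log2(number of peaks + 1) was 4.03 (two-sided exact permutation test, n = 4 against 4 libraries, p = 0.0286, the smallest that this design allows). The test pooled the 2 antibodies at each time, although they measure different factors, so the 4 libraries are not replicates of a single measurement. Taken one antibody at a time, 2 libraries against 2 could not have reached 0.05. The lists at 0 h were short throughout, with 425 peaks against 24630 at 6 h. At the 6 h share of peaks near these genes, 0.252%, about 1.07 peaks would be listed at 0 h, so 0 h lists of this length hold little information on these genes. For the same reason the permutation test could not separate a change at these genes from the difference in list length. The nearest 0 h peak lay 0.339 Mb from the start of Tnfaip3 and 0.348 Mb from that of Cyld, and farther from the remaining genes. Of all genes, 1.2% had a 0 h peak within 50 kb.

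At 6 h, 6 of the 6 genes had a RelA peak in both RelA libraries at overlapping positions, and 11.9% of all annotated genes did. Tnip2 was counted through weak peaks, with log2 folds of 1.67 and 1.52. The count of members was 5 with the FDR under 0.01 and 5 with the log2 fold above 2, settings for which no share of all genes is given here. A RelB peak in both RelB libraries was found at 5 of the 6, all but Tnip2, against 12.7% of all genes. Reproducible peaks of both antibodies were found at 5 of the 6, against 8.24% of all genes. A site called in all 4 libraries was likewise found at 5 of the 6, against 8.89% of all genes. The 6 genes are a chosen list, so these counts are a description and no test was run on them.

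**Figure D1:**
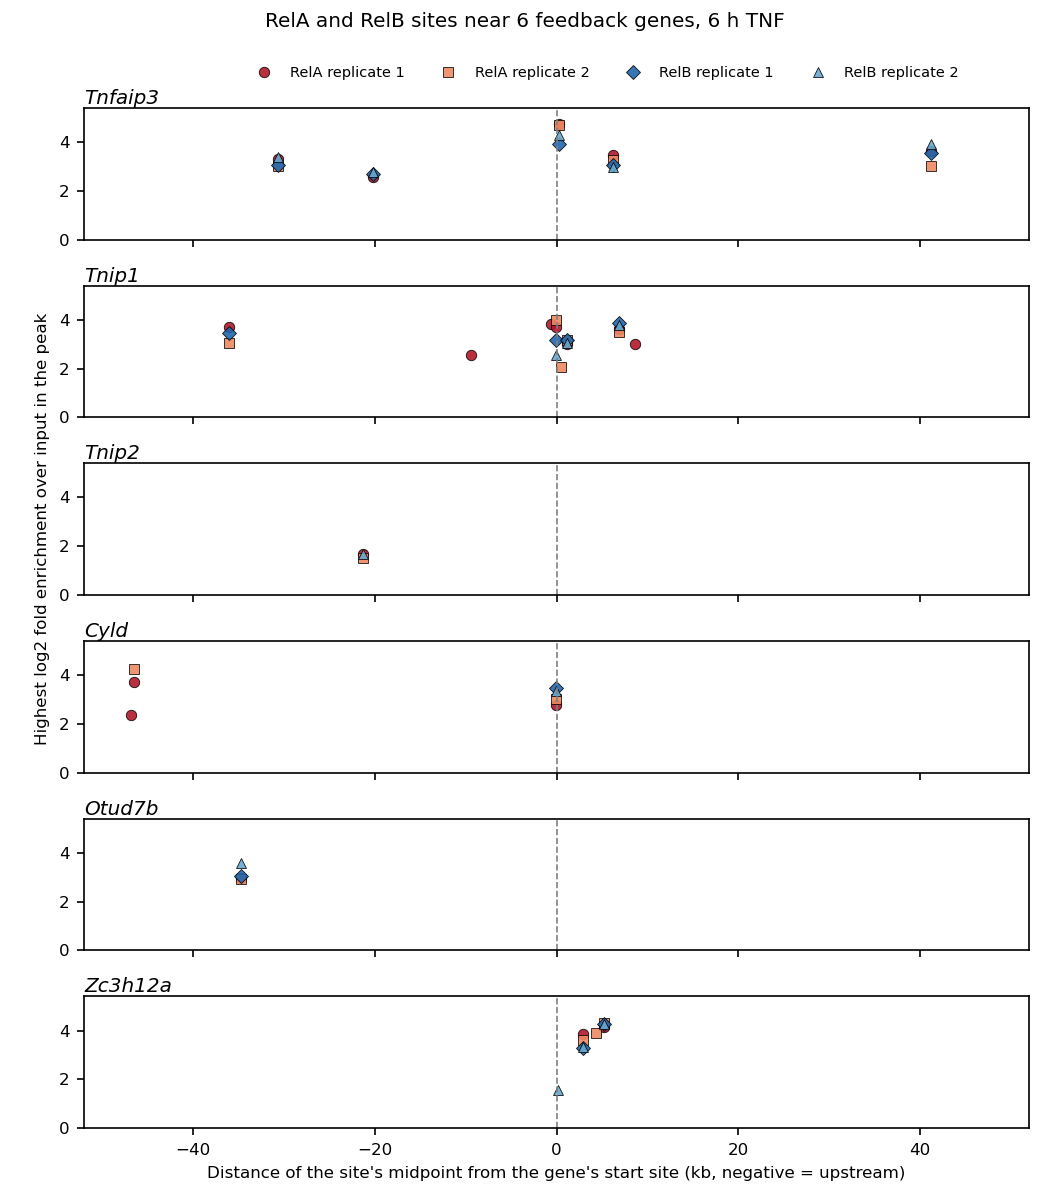
Sites of RelA and RelB near the 6 genes after 6 h of TNF, by distance of the site's midpoint from the gene's start site (kb, negative upstream) and log2 fold over input. Each point is 1 library. Tnfaip3 and Tnip1 had sites on both sides of the start, while the only sites of Tnip2 and Otud7b lay upstream at 21250 and 34707 bp.

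Tnfaip3 (ENSMUSG00000019850.5, chr10:18720716-18735463, minus strand) carried 4 sites that were called in all 4 libraries and 1 that was called in 3. Including Tnfaip3, 17 of all genes (0.0456%) had at least as many sites called in all 4 libraries. ChIP reads in its peaks summed to 294 and 259 for RelA and to 176 and 264 for RelB. The second RelB library overlapped the range of the RelA libraries.

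The strongest of the 22 member sites was at the start of Tnfaip3 (chr10:18735090-18735333). Its midpoint lay 252 bp downstream of the gene's 5′ end, in annotated UTR, and 5 bp from the start of another annotated transcript of the gene. The log2 fold over input, which the peak caller gives for the window of a peak where it is highest and which need not be the window with the most reads, was 4.76 and 4.70 for RelA, with 133 and 116 ChIP reads in the peaks. For RelB it was 3.91 and 4.30, with 60 and 85 reads. Input reads at the same peaks numbered 26, 23, 17 and 23. Both RelA libraries thus lay above both RelB libraries here. In the peak caller's order the site ranked 21 of 7052 and 34 of 5688 in the RelA lists, and 323 of 5192 and 188 of 6698 in the RelB lists. By mean log2 fold over the 4 libraries it ranked 61 of the 1860 sites called in all 4.

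The other sites of Tnfaip3 were weaker and more even between the antibodies. A site in the gene's intron, 6240 bp downstream (chr10:18729150-18729296), had log2 folds of 3.46 and 3.28 for RelA, with 53 and 62 reads, and of 3.05 and 2.97 for RelB, with 35 and 46 reads. Its midpoint lay 572 bp upstream of the start of another annotated transcript of the gene. An intergenic site beyond the gene's 3′ end, 41253 bp downstream of the start (chr10:18694046-18694375), had 3.63 and 3.01 for RelA, with 54 and 53 reads, and 3.56 and 3.93 for RelB, with 50 and 78 reads. The intronic site was higher in both RelA libraries, while at the downstream site the antibodies overlapped.

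Upstream of Tnfaip3, an intergenic site at 30671 bp (chr10:18765972-18766297) had log2 folds of 3.31 and 3.01 for RelA, with 38 and 28 reads, and of 3.07 and 3.40 for RelB, with 15 and 39 reads. At 20173 bp (chr10:18755566-18755707) a site was listed in the first RelA library with a log2 fold of 2.57 and in the RelB libraries with 2.68 and 2.78, each with 16 reads. It was the only Tnfaip3 site missing from a 6 h list, that of the second RelA library. For all 5 sites the nearest protein-coding start was that of Tnfaip3.

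Tnip1 (ENSMUSG00000020400.10, chr11:54724289-54776419, minus strand) had 3 sites called in all 4 libraries, and they lay within 7 kb of its start. The strongest was inside the gene, 6879 bp downstream (chr11:54769369-54769711), in annotated UTR. The start of another annotated transcript of the gene lay 7 bp from its midpoint. Its log2 folds were 3.63 and 3.51 for RelA, with 51 and 49 reads, and 3.85 and 3.78 for RelB, with 50 and 55 reads. Both RelB libraries were above both RelA libraries, by little.

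The site at the gene's start, 70 bp upstream (chr11:54776249-54776730), showed the opposite order and the widest gap between the antibodies among the member sites. Its log2 folds were 3.72 and 4.0 for RelA, with 56 and 68 reads, and 3.18 and 2.56 for RelB, with 35 and 13 reads. The peak of the second RelB library was close to the calling threshold, with a false discovery rate (FDR) of 0.0823, where the lists end at 0.1. Another site in the first part of the gene, 1124 bp downstream (chr11:54774960-54775630), had 2.99 and 3.17 for RelA, with 64 and 52 reads, and 3.18 and 3.06 for RelB, with 38 and 42 reads, so the antibodies overlapped.

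A more distant Tnip1 site, 36084 bp upstream, lay in an intron of Anxa6 (chr11:54812363-54812643). Its log2 folds were 3.70 and 3.06 for RelA and 3.46 in the first RelB library, with only 13, 13 and 10 ChIP reads. The peaks of the first RelA and the first RelB library had no input read. In a peak without input reads the fold equals log2(window reads + 1), as it did in 238 of 238 such peaks of the lists, so it rests on the ChIP reads alone. The fold also took such a value, to within 1e-05, in 8.43% of peaks that do have input reads, where it equals that of a window with no input read. This was so for 6 of the 60 member peaks with input reads, those of Cyld at 46542 bp upstream in both RelA libraries, Zc3h12a at 4347 bp downstream and Tnip1 at 70 bp upstream in the second RelA library, Tnip1 at 634 bp upstream in the first, and Otud7b in the second RelB library. Each of the remaining 4 Tnip1 sites was listed for RelA only and in 1 library. Those at 9381 and 634 bp upstream and at 8624 bp downstream came from the first RelA library, with log2 folds of 2.57, 3.81 and 2.99 and with 13, 17 and 21 reads. The one at 516 bp downstream came from the second, with a log2 fold of 2.08 and 20 reads.

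Tnip2 (ENSMUSG00000059866.7, chr5:34838736-34856646, minus strand) had the fewest reads in listed peaks and the lowest top fold of the 6 genes. Its only site lay 21250 bp upstream in an intron of Sh3bp2 (chr5:34877867-34877926), and the nearest protein-coding start was that of Sh3bp2 at 9409 bp. The log2 folds were 1.67 and 1.52 for RelA and 1.66 in the second RelB library, with 13, 14 and 12 ChIP reads against 7, 7 and 6 input reads. The lowest FDR of the 3 peaks was 0.0478, and with the FDR held under 0.01 Tnip2 had no peak. No κB match was found within 100 bp of this site's midpoint, while an AP-1 element was, just outside the listed peaks.

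Cyld (ENSMUSG00000036712.7, chr8:91220927-91275844, plus strand) was bound at its start by both factors. The site there, 15 bp upstream (chr8:91220733-91221091), had log2 folds of 2.79 and 3.01 for RelA, with 21 and 27 reads, and of 3.49 and 3.37 for RelB, with 34 and 53 reads. Both RelB libraries were higher. The other Cyld sites lay 46542 and 46872 bp upstream, in an intron of Nod2, which encodes a sensor of bacterial cell wall fragments, and were nearer to the start of Nod2 (3171 and 2841 bp) than to that of Cyld. The first (chr8:91174356-91174414) was listed in both RelA libraries, with log2 folds of 3.70 and 4.25 and 18 and 28 reads, and in neither RelB list. The second was listed in the first RelA library only, with a log2 fold of 2.36 and 12 reads. A peak missing from the RelB lists is no measure of the difference, which could not be tested at these sites.

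Otud7b (ENSMUSG00000038495.8, chr3:95908450-95965052, plus strand) had a single site, in intergenic DNA 34707 bp upstream (chr3:95873546-95873940). The nearest protein-coding start was that of Vps45, 11354 bp away. Log2 folds were 2.98 and 2.92 for RelA, with 21 and 19 reads, and 3.07 and 3.58 for RelB, with 27 and 41 reads. All RelB values were above all RelA values.

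Zc3h12a (ENSMUSG00000042677.7, chr4:124795667-124805084, minus strand) carried the second strongest member site, in an intron 5213 bp downstream of its start (chr4:124799549-124800194). This site's midpoint lay 107 bp upstream of the start of a shorter transcript. The log2 folds were 4.16 and 4.32 for RelA, with 94 and 54 reads, and 4.29 and 4.26 for RelB, with 72 and 51 reads. The 4 values were nearly equal, and the site ranked 101 of the 1860 sites called in all 4 libraries.

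Another intronic site of Zc3h12a, 2864 bp downstream (chr4:124802156-124802284), had 3.86 and 3.61 for RelA, with 43 and 45 reads, and 3.29 and 3.30 for RelB, with 14 reads in each library. Both RelA libraries were higher. The remaining sites were listed once, at 4347 bp downstream in the second RelA library (log2 fold 3.91, 16 ChIP reads and 1 input read) and at 171 bp downstream in the second RelB library (log2 fold 1.54, 14 reads, FDR 0.0728).

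**Figure D2:**
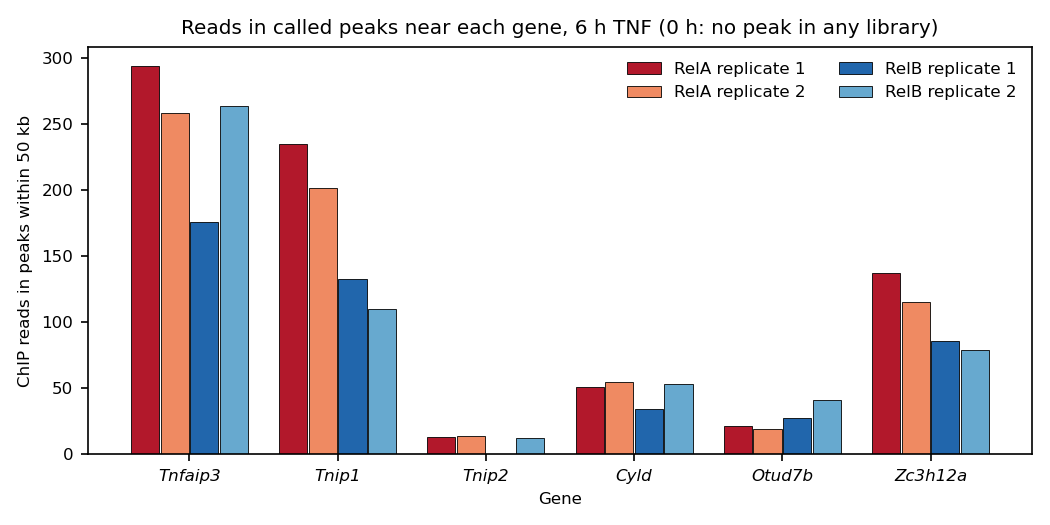
ChIP reads in listed peaks within 50 kb of each gene's start in the 4 libraries at 6 h. The sums move with how many peaks were listed as well as with their height. Tnfaip3 had between 176 and 294 reads and Tnip2 between 0 and 14.

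Over the 11 sites called in all 4 libraries, the median of the mean log2 fold was 3.37, and over all 1860 such sites it was 3.19. Of the 11, 7 lay above the genome-wide median.

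**Figure D3:**
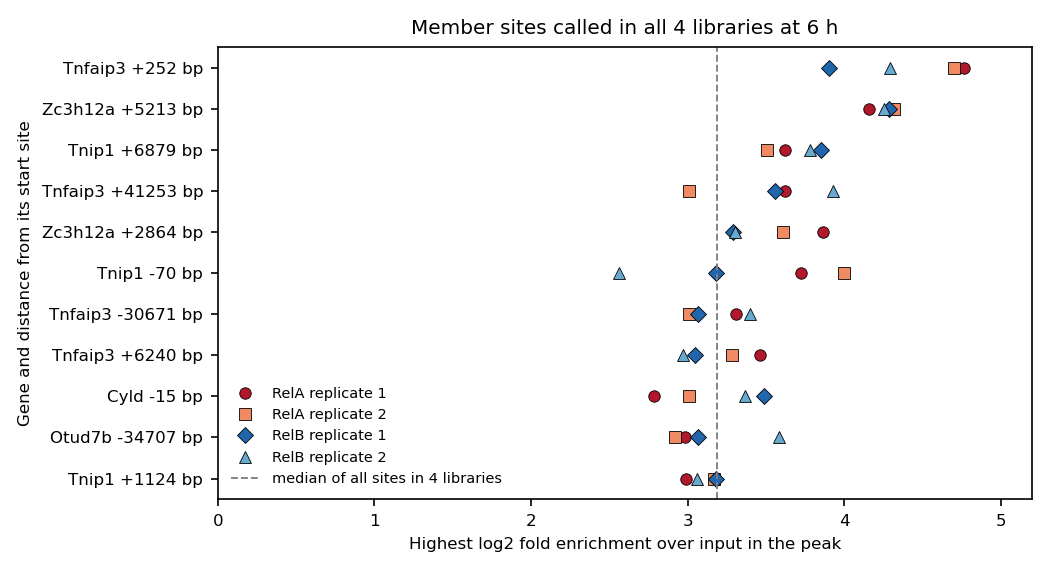
Log2 fold over input in each 6 h library at the 11 member sites called in all 4, ordered by their mean. The dashed line is the median of all 1860 such sites, 3.19. The start of Tnfaip3 and the intronic Zc3h12a site had all 4 values above 3.9, and the start of Tnip1 had the widest spread.

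To ask whether RelA and RelB bound these sites to different extents, the log2 folds of all 1860 sites, centered on each library's median, were compared between antibodies with limma. Sites missing from any 6 h list were not in the fit. It could therefore not find differences at sites listed for only RelA or only RelB, and the counts below do not cover them. None of the 11 member sites passed an adjusted p of 0.05, and 2 had an unadjusted p under 0.05. Genome-wide, 11 sites passed (0.591%), and 313 had an unadjusted p under 0.05. They were split into 8 stronger for RelA and 3 stronger for RelB, a split that did not hold with the ChIP reads of the fullest window, where 141 passed as 67 and 74. The number that passed was 0 without either RelB library and 40 or 39 without the first or second RelA library. At the start of Tnip1 RelA exceeded RelB by 1.08 log2 units after centering (95% interval from 0.40 to 1.75, limma adjusted p = 0.123, n = 2 libraries per antibody). The call depended on the measure here. With window reads in place of the fold, the difference was 1.00 and the limma adjusted p was 0.00429. At the start of Tnfaip3 the difference was 0.71 (95% interval from 0.11 to 1.32, limma adjusted p = 0.228).

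The other 9 sites had intervals that included 0. At the intronic sites of Zc3h12a the difference was 0.52 (interval from -0.07 to 1.11) at 2864 bp and 0.05 (interval from -0.54 to 0.64) at 5213 bp. At Tnfaip3 it was 0.45 (from -0.14 to 1.04) at the intronic site, 0.01 (from -0.60 to 0.62) at 30671 bp upstream and -0.34 (from -1.0 to 0.31) at 41253 bp downstream. At the remaining Tnip1 sites it was 0.04 (from -0.55 to 0.63) at 1124 bp and -0.17 (from -0.75 to 0.41) at 6879 bp. It was -0.45 (from -1.05 to 0.15) at the start of Cyld and -0.29 (from -0.91 to 0.33) at the Otud7b site. These intervals, not adjusted for the number of sites, hold the differences that 2 libraries per antibody could not exclude. The median difference over the 11 sites was 0.04 and over all sites -0.01. The centering holds the latter near 0, so it does not compare the antibodies genome-wide. Before centering, the library medians were 3.21 and 3.17 for RelA and 3.25 and 3.30 for RelB.

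**Figure D4:**
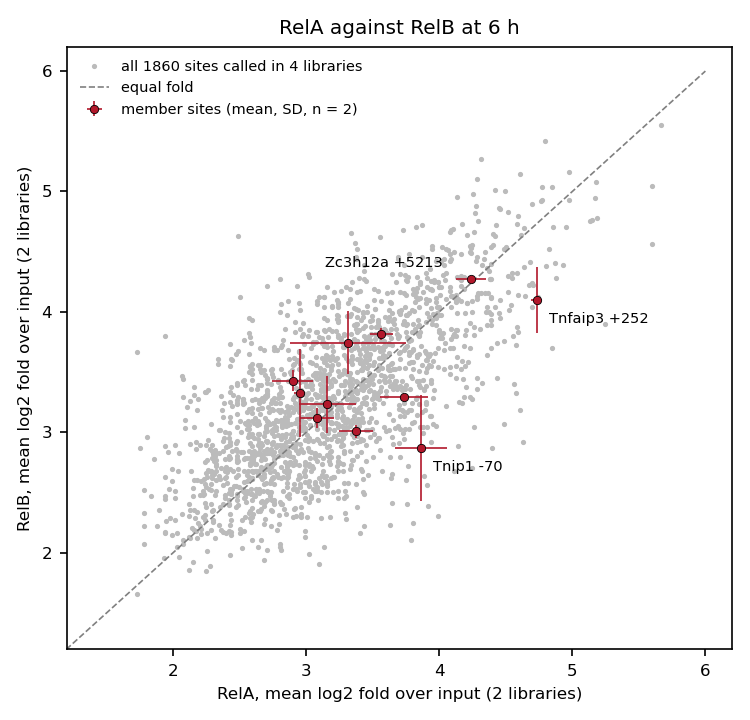
Mean log2 fold over input of RelA (x axis) and RelB (y axis) at the 1860 sites called in all 4 libraries at 6 h. Grey points are all sites, red points the 11 member sites with the SD of 2 libraries, and the dashed line marks equal folds. The starts of Tnfaip3 and Tnip1 lie on the RelA side, and the stronger intronic Zc3h12a site lies close to the line.

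Among 36 other annotated genes of the same pathway, 6 had a reproducible RelA peak, 3 a reproducible RelB peak and 3 both. The share with both, 8.33%, was near the 8.24% of all genes. The count moved with the setting, to 2 (5.56%, against 2.22% of all genes) within 10 kb, 6 (16.7% against 15.5%) within 100 kb, 2 (5.56% against 9.15%) with peak centers matched within 200 bp, and 5 (13.9% against 10.4%) without the first RelB library. None of the 19 other deubiquitinases and none of the 5 other partners of A20 and Cyld had reproducible peaks of both antibodies, nor did the 3 subunits of the linear ubiquitin ligase. All 3 genes with both were among the 9 genes for RNases and mRNA decay proteins, and each had a site called in all 4 libraries.

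Zfp36, which encodes tristetraprolin, a protein that promotes decay of AU-rich mRNAs, had such a site 2468 bp upstream (chr7:29166409-29167076). Its log2 folds were 4.40 and 3.89 for RelA and 4.24 and 3.98 for RelB. Rc3h2, encoding Roquin-2, an RNA-binding ubiquitin ligase family protein, had one 20420 bp upstream (chr2:37298652-37299035), with 3.91 and 4.09 for RelA and 3.70 and 4.25 for RelB. Zfp36l1, a paralog of Zfp36, had one 2483 bp upstream (chr12:81216389-81216577), with 3.31 and 3.27 for RelA and 3.26 and 2.73 for RelB. The antibodies overlapped at Zfp36 and Rc3h2. Tnip3, Rnf31, which encodes the catalytic subunit of the linear ubiquitin ligase, and N4bp1 had a reproducible RelA peak without a reproducible RelB peak. Without the first RelB library the count with both antibodies was 5 in place of 3. Some of these genes thus had a peak in the second RelB library only.

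The protein-coding genes whose reads in peaks over the 8 libraries were closest to those of Tnfaip3, by Euclidean distance of log2(reads + 1), were Gm17334 and Gm11006, both at 0.323, and Ccl9, a chemokine gene, at 0.400. All 3 are on chromosome 11, and Gm17334 and Gm11006 were assigned the same reads. All had no read in peaks at 0 h, so the likeness rests on the 4 libraries at 6 h. For Ccl9 these were 264 and 242 reads for RelA and 140 and 240 for RelB.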

How the data were processed

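The authors removed adapters with cutadapt, mapped reads uniquely with Bowtie (mm9) and ran cisGenome on each library against the Nfkb2-/- input. For each peak the authors deposited an FDR (a q-value), the log2 fold over scaled input of its strongest window, and raw read counts for ChIP and input. Coordinates are 1-based. Genes and UTRs came from GENCODE for NCBIM37 (mm9), and every peak lay within that genome's chromosomes.

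Peaks of 6 h libraries overlapping by at least 1 bp were merged into sites. Peak numbers were compared with an exact permutation test, and log2 folds with limma 3.58.1 in R 4.3.3 (lmFit, eBayes, Benjamini-Hochberg over all sites), without the replicate number as a block. Motifs were searched on both strands with Python 3.11.15. The limma fit and the motif search were each tested on simulated data. Named were all members, other pathway genes with a site in all 4 libraries, and the 3 genes most like Tnfaip3. The decamer and the second Tnip1 sequence were added after the data were seen. Members and lists were chosen with earlier results of these data known. Counting precision could not be stated, since total reads are unknown.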

Additional observations from a re-analysis of the deposited data

How the results depend on the processing

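The counts of members with reproducible RelA or RelB peaks, of member sites called in all 4 libraries and of sites with a κB match stayed within 1.5 times their values under every alternative run. Members with a reproducible RelA peak, 6, became 5 with the FDR under 0.01 or the log2 fold above 2, and 4 within 10 kb. The 22 member sites became 14 within 10 kb. The other pathway genes with both antibodies became 2 within 10 kb, 6 within 100 kb, and lay between 3 and 5 when a library was left out, with 5 without the first RelB library. The number of sites differing between RelA and RelB, 11, became 30 with the FDR under 0.01, 141 with window reads, and, with 1 library left out, between 0 and 40, namely 40 and 39 without the first and second RelA library and 0 without either RelB library. For member sites it became 1 with window reads, that at the start of Tnip1, which could not be fitted with the FDR under 0.01. The cause was not tested.

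With the replicate block the count of differing sites was 85 (limma, 41 RelA-stronger and 44 RelB-stronger), and 1 member site passed, the start of Tnip1 (adjusted p = 0.0405). Same-numbered libraries did not deviate together (correlation -0.0026), so the numbers were not taken as pairs. The time difference under the replicate block was 4.03 with an exact p of 0.125, the smallest that design allows.

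RelA minus RelB turned sign where it was near 0. Without centring it was -0.0724 at Tnfaip3, 30671 bp upstream, -0.0427 at Tnip1, 1124 bp downstream, and -0.0348 at Zc3h12a, 5213 bp downstream, where quantile normalization also gave -0.0290. Leaving out 1 library gave -0.132 to 0.153, -0.0711 to 0.152 and -0.0516 to 0.148 at these sites.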
